A study of Mus musculus with 32 samples.

Results

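The contralateral hemisphere of the stroke experiment offers a view of repopulated border macrophages away from the lesion. sdCAMs, the CNS-associated macrophages of the brain without its choroid plexus, were sorted from that hemisphere of 4 BLZ945 mice (C2, C3, C4 and D1) and 4 CTL mice (A2, A3, A4 and B1), and these 8 libraries of the 32 in the series, chosen by treatment, hemisphere and sorted cell type, are compared here. All mice were wild type (C57BL/6JCrl) and all had a thromboembolic stroke, made by injecting thrombin into the middle cerebral artery. They were young adults when first gavaged. BLZ945, an inhibitor of the CSF1 receptor, was gavaged daily over 7 days (200 mg/kg), and CTL mice received vehicle. Stroke followed 8 weeks after treatment and the cells were taken 1 day later, so that every contralateral sample, CTL included, came from a brain with an infarct on the other side. The sort took CD45+CD11b+CD206+ cells without Ly6C, Ly6G or CD11c, and each library bears the name of 1 mouse. The study's methods also describe pooling the cells of a pair of BLZ945 mice per replicate and do not say for which of the stroke sorts, so that a BLZ945 library may hold more than 1 animal.

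Macrophages of the leptomeninges and perivascular spaces clear debris, proteins and pathogens at the brain's borders and carry scavenger receptors such as CD206 and CD163. Those of the leptomeninges are seeded from the yolk sac before birth and give rise to the perivascular ones after it, and both need CSF1 receptor signals to survive. When they are depleted, the emptied niche can be refilled by surviving macrophages or by cells derived from bone marrow monocytes, which carry more MHC class II, the molecules that present peptides to CD4+ T cells. The choroid plexus, an epithelium that secretes cerebrospinal fluid, expresses transthyretin (Ttr) at very high levels, so that a little of its RNA is easily seen in a sorted library.

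The 8 libraries held 7397393 to 11081409 counts on genes, and 3 counts corresponded to 0.271 to 0.406 CPM, the TMM-scaled abundance used throughout. Total counts, genes detected and the share of ribosomal protein genes differed between the treatment means by less than the range within the CTL mice (exact two-sided permutation p = 0.257, 0.714 and 0.486, smallest possible p 0.0286; adjusted over the 3 measures, 0.714 for each). Replicates were no copies of one another, with a variance between their counts 45.1 to 148 times that of sampling. Border macrophage markers were far above their level in whole tissue, with Mrc1 at 344 to 1643 CPM, Cd163 at 56.6 to 705 and Pf4 at 160.0 to 758, against at most 5.76, 4.95 and 1.24 CPM in the 16 tissue libraries, which were scaled separately. The microglial transcript P2ry12 was also above its tissue level, at 1118 to 4597 CPM against at most 28.99 in tissue, and above Mrc1 in each library. The summed microglia list was at 18601 to 25086 CPM in CTL and 8984 to 17171 CPM in BLZ945 libraries. The summed border macrophage identity list was at 7213 to 17435 and 5090 to 12678.5 CPM. Only in D1 was the microglia sum below the identity sum. The share of microglia among the sorted cells was not tested. Xist against the Y-linked genes made CTL mice A2, A3 and A4 and BLZ945 mouse D1 male and CTL mouse B1 and BLZ945 mice C2, C3 and C4 female, so that sex and treatment were unbalanced. Library C2 also carried low Y-linked transcripts, and whether it holds cells of more than 1 mouse was not tested. The labels place all samples in 1 batch.

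No gene passed the test between BLZ945 and CTL contralateral sdCAMs. With edgeR's quasi-likelihood test over 18297 genes, 0 (0%) had an adjusted p-value under 0.05 together with a log2 fold change beyond 0.59, whereas 1133 (6.19%) had an unadjusted p under 0.05. Of these, 612 (3.34% of all genes) were higher and 521 (2.85%) were lower in BLZ945 sdCAMs. The smallest adjusted p was 0.651, for Plbd1, and all other genes were at 0.759 or above. DESeq2's Wald test called 44 genes (0.315% of those with an adjusted p), 35 higher (0.25%) and 9 lower (0.0644%), with no adjusted p for 4313 genes. A fit with the mouse as a random replicate block (limma voom, both hemispheres) called 11 (0.0601%), of which the highest reached 13.5 CPM in any of the 8 libraries. In the values below the log2 fold change is BLZ945 minus CTL ± its standard error, and the libraries stand in the order A2, A3, A4, B1 and C2, C3, C4, D1. Among genes with a mean of at least 5 CPM the median standard error was 0.372.

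The genes that the study assigns to bone marrow-type sdCAMs, from its single-cell and bulk data on cells of each origin, had higher values in all repopulated mice. Each of the 6 had its lowest BLZ945 library above its highest CTL library, which 1.45% of all genes tested had, and the median log2 fold change was 0.98 against 0 over all genes. The list was taken up with results of these data known, 4 of its 6 genes belong to 1 pathway, and none passed edgeR over all genes, so the counts are a description. H2-Aa, the α-chain of the class II molecule I-A, had 539.8, 518, 855 and 798 CPM in CTL and 1249, 1621, 929 and 1493 CPM in BLZ945 libraries (log2 fold change 0.96 ± 0.22, edgeR unadjusted p = 0.000588). Cd74, the invariant chain that escorts class II molecules through the cell, had 2258, 1649.6, 3328 and 3274 CPM in CTL and 5275, 6771, 3640.1 and 5737 CPM in BLZ945 libraries (log2 fold change 1.03 ± 0.25, edgeR unadjusted p = 0.00094). Mouse C3 had the highest and mouse C4 the lowest value of both genes among the repopulated mice. The β-chains H2-Ab1 (log2 fold change 0.92 ± 0.21) and H2-Eb1 (0.96 ± 0.23) were likewise highest in C3 and lowest in C4. DESeq2 called all 6 genes, with an adjusted p of 0.00359 for H2-Ab1 and 0.019 for Ccr2.

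Outside the class II pathway, Ccr2, the receptor through which monocytes follow CCL2, had 76.6, 47.6, 119.5 and 74.6 CPM in CTL and 292, 137, 167 and 313 CPM in BLZ945 libraries (log2 fold change 1.51 ± 0.36, edgeR unadjusted p = 0.000754). Fxyd5, a regulator of the sodium pump, had 270.2, 359, 249 and 282 CPM in CTL and 632, 409.6, 701 and 581 CPM in BLZ945 libraries (log2 fold change 1.00 ± 0.23, edgeR unadjusted p = 0.00045). Here C3 was the lowest repopulated mouse, so that Ccr2 and Fxyd5 did not follow the class II genes from mouse to mouse. Leaving out any 1 of the 8 libraries kept the 6 log2 fold changes between 0.83 and 1.80. With sex in the model they were 0.86 (H2-Eb1) to 1.54 (Ccr2), and within sexes BLZ945 was above CTL for each gene, by 0.63 (H2-Aa) to 1.33 (Ccr2) on the log2 scale in the 3 female mice against female B1 and by 1.01 (Fxyd5) to 2.04 (Ccr2) in male D1 against the 3 male CTL mice. Library C2, counted among the females, also carried low Y-linked transcripts.

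The class II genes share short promoter boxes, which are shown for 2 members whose treatments did not overlap (H2-Aa and H2-Eb1) and 2 whose treatments did (H2-Oa and H2-Ob). The 120 bases just upstream of each start are given 5′ to 3′ on the gene's strand (RefSeq, GRCm38.p6), H2-Aa at chr17:34287824-34287943 (minus strand), H2-Eb1 at chr17:34305747-34305866, H2-Oa at chr17:34092259-34092378 and H2-Ob at chr17:34238785-34238904 (plus strand). Capitals mark GCAAC, the core of the X box, and downstream of it GATTGG, the Y box.
H2-Aa: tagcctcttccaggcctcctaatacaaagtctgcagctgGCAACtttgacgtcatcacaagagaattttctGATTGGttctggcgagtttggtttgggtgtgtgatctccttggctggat
H2-Eb1: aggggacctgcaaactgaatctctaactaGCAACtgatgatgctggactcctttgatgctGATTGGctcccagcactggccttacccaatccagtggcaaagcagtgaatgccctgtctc
H2-Oa: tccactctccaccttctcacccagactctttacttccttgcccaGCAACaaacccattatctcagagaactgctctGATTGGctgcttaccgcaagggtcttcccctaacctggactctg
H2-Ob: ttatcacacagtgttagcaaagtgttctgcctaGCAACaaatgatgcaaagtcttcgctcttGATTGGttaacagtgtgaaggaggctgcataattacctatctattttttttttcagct
Both boxes stood in all 4, with 24 to 27 bases between them. Of the 11 class II genes listed, 8 had an entry in the promoter table and 5 of these held both motifs on either strand in this window, against 1.61% of all 32851 promoters. GCAAC was in 16.1% and GATTGG in 9.67% of promoters, and the motifs do not overlap in the 4 printed. A match describes the letters only.

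The remaining class II genes had overlapping treatments. H2-DMb1, a chain of the H2-DM complex that loads peptides, had 144, 125, 134 and 133 CPM in CTL and 187, 188, 127 and 194 CPM in BLZ945 libraries (log2 fold change 0.38 ± 0.18, edgeR unadjusted p = 0.0526). Its partner H2-DMa had 218 to 300.3 CPM in CTL and 239 to 354 CPM in BLZ945 libraries (log2 fold change 0.17 ± 0.19), and H2-DMb2 had 11.6 to 29.5 against 20.6 to 52.5 CPM (0.68 ± 0.43). H2-Oa and H2-Ob, the chains of the H2-DM inhibitor H2-DO, had log2 fold changes of -0.44 ± 0.46 and -0.26 ± 0.29. Ciita, the co-activator on which class II transcription depends, had 11.8, 4.16, 20.1 and 9.18 CPM in CTL and 6.71, 17.4, 13.8 and 23.6 CPM in BLZ945 libraries (log2 fold change 0.44 ± 0.50, edgeR unadjusted p = 0.387). H2-Eb2 ranged from 0 to 0.928 CPM. Of the 11 genes of the pathway, 4 had an unadjusted p under 0.05, all higher in BLZ945 (3.34% of all genes were), and the median log2 fold change was 0.44.

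**Figure D1:**
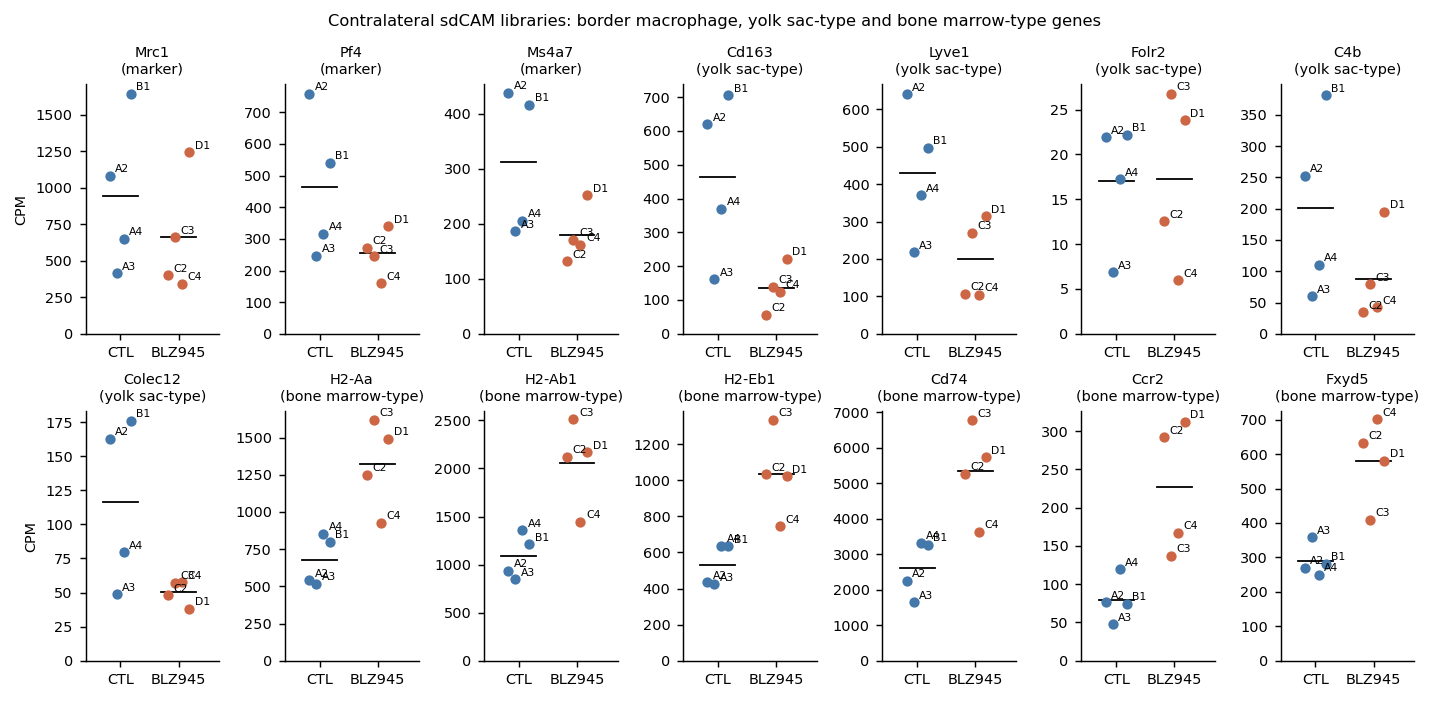
CPM of 14 genes in the 8 contralateral sdCAM libraries, 1 point per mouse, with the mean of each treatment as a line and each vertical axis starting at 0. The 6 bone marrow-type genes had no overlap between CTL (blue) and BLZ945 (orange), while Mrc1, Pf4, Ms4a7 and the 5 yolk sac-type genes overlapped.

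Genes of the yolk sac-type sdCAM list, also assigned by the study from its expression and chromatin accessibility data, overlapped between the treatments, with lower values in most repopulated mice for all but Folr2. Of 5 genes, 3 had an unadjusted p under 0.05, all lower in BLZ945 (2.85% of all genes were), and the median log2 fold change was -1.19. Cd163, the scavenger receptor for haemoglobin and haptoglobin, had 619, 161, 370.3 and 705 CPM in CTL and 56.6, 138, 124 and 222 CPM in BLZ945 libraries (log2 fold change -1.78 ± 0.47, edgeR unadjusted p = 0.00187). Only mouse D1 was above the lowest CTL mouse, A3. Colec12, a scavenger collectin, had 163, 48.7, 79.4 and 176 CPM in CTL and 47.99, 57.4, 57.5 and 37.96 CPM in BLZ945 libraries (log2 fold change -1.22 ± 0.38, edgeR unadjusted p = 0.00553). Lyve1, a hyaluronan receptor of perivascular macrophages, had 639.8, 218, 369.9 and 497 CPM in CTL and 108, 269.6, 104 and 314 CPM in BLZ945 libraries (log2 fold change -1.12 ± 0.39, edgeR unadjusted p = 0.0119). For these genes A2 and B1 were the high CTL mice and A3 the low one. C4b, complement component C4, had a log2 fold change of -1.19 ± 0.58 (edgeR unadjusted p = 0.0555). Folr2, the folate receptor of macrophages, had 6.87 to 22.2 CPM in CTL and 5.95 to 26.8 CPM in BLZ945 libraries, with a log2 fold change of 0.02 ± 0.46. In bulk RNA a smaller share of cells of 1 type and less of a transcript per cell cannot be told apart.

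Within each sex the yolk sac-type genes had unlike values. In the female mice, Cd163, Colec12, Lyve1, C4b and Folr2 differed between BLZ945 and CTL by -2.83, -1.70, -1.78, -2.96 and -0.80 on the log2 scale, against the single CTL mouse B1. Library C2, counted as female here, also carried low Y-linked transcripts. In the males, mouse D1 differed from the 3 CTL mice by -0.58 for Cd163, -1.17 for Colec12, -0.25 for Lyve1, 0.72 for C4b and 0.78 for Folr2. In a fit of the 8 libraries with a sex-by-treatment term, chosen after seeing the data and assuming that the lone mouse of a sex and treatment varies like the others, C4b had the largest difference between the sexes (3.34, edgeR unadjusted p = 0.00514, adjusted p = 0.555), Cd163 had 1.93 (unadjusted p = 0.0594), and the adjusted p was at least 0.555 for all 5 genes.

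The border macrophage identity list overlaps with the yolk sac-type list, with Cd163 and Colec12 in both, so their counts are not independent. Of 19 identity genes tested, 9 had an unadjusted p under 0.05, all lower in BLZ945 (2.85% of all genes were), 2 had no overlap (1.79% of all genes were lower without overlap), and the median log2 fold change was -0.63. Cd209f, a C-type lectin of the DC-SIGN family, had 163, 77.3, 73.9 and 318 CPM in CTL and 5.32, 5.27, 21.6 and 23.5 CPM in BLZ945 libraries (log2 fold change -3.50 ± 0.68, edgeR unadjusted p = 0.000115). This was the largest of the 19 differences, and DESeq2 called it (adjusted p = 6.39e-05). Its relative Cd209g, named after its values were seen, had 8.69 to 70.1 CPM in CTL and 0.723 to 6.86 CPM in BLZ945 libraries. Aif1, the actin-binding protein IBA1, also had no overlap, with 217 to 279.9 against 139 to 191 CPM (log2 fold change -0.51 ± 0.19). Microglia express Aif1 and Csf1r as well. Mrc1, which encodes the CD206 used in the sort, had 1081, 415, 649.9 and 1643 CPM in CTL and 400.0, 661, 344 and 1243 CPM in BLZ945 libraries (log2 fold change -0.52 ± 0.46, edgeR unadjusted p = 0.276), and its log2 fold change ran from -0.11 without B1 to -1.02 without D1. Pf4, a chemokine of platelets and border macrophages, had 758, 246, 315 and 540.5 CPM in CTL and 271, 245, 160.0 and 339.5 CPM in BLZ945 libraries (log2 fold change -0.87 ± 0.33, edgeR unadjusted p = 0.0191), with -0.52 without A2. Maf was at -0.42 without B1. Csf1r, the receptor that BLZ945 blocks, had 3189 to 6177 CPM in CTL and 1682 to 4283 CPM in BLZ945 libraries (log2 fold change -0.63 ± 0.27), Maf, a macrophage transcription factor, 204 to 417 against 124 to 262 CPM (-0.64 ± 0.28), and Cd68 872 to 1586 against 547 to 1353 CPM (-0.23 ± 0.25). Scaling the libraries to these identity genes in place of TMM moved the median of all genes by 0.61, brought the list median to 0.00798 by construction, and turned the direction of Mrc1 (0.18), Csf1r, Maf and Aif1, whereas Cd163 stayed at -0.99 and Cd209f at -2.58. Under this scaling the median was 1.60 for the bone marrow-type list, -0.47 for the yolk sac-type list and 1.03 for the MHC class II list.

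Genes that the study found in both kinds of sdCAM had no common direction. Ms4a7, a membrane protein of border macrophages, had 438, 186, 205 and 416 CPM in CTL and 132, 170.4, 162 and 252 CPM in BLZ945 libraries (log2 fold change -0.80 ± 0.33, edgeR unadjusted p = 0.0271). Apoe, the lipid carrier, had 8612 to 16725 CPM in CTL and 6241 to 12597 CPM in BLZ945 libraries (log2 fold change -0.52 ± 0.28). Lyz2, lysozyme, had 2509 to 4247 against 2874 to 6706 CPM (0.42 ± 0.26), and Clec12a, an inhibitory lectin of myeloid cells, 42.7 to 66.4 against 44.4 to 118 CPM (0.43 ± 0.29). Of the 4, 2 were positive and the median log2 fold change was -0.05, which turned to 0.57 when scaled to the identity genes.

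Choroid plexus transcripts varied widely among mice of both treatments, although the plexus had been removed before the sort. Ttr, the carrier of thyroxine and retinol made by the choroid plexus, had 24.5, 205, 8599 and 74.1 CPM in CTL and 1349, 19345, 36042 and 5004 CPM in BLZ945 libraries (log2 fold change 2.79 ± 1.73, edgeR unadjusted p = 0.126). The CTL mouse A4 lay above BLZ945 mice C2 and D1, and mouse C4 held the most. In tissue Ttr ranged from 0.372 to 3980.4 CPM. Enpp2, the lysophospholipase autotaxin, had 237, 365, 4337 and 106 CPM in CTL and 486, 11935, 18593 and 3502 CPM in BLZ945 libraries (log2 fold change 2.77 ± 1.19, edgeR unadjusted p = 0.0334), and its log2 fold change was 5.23 without A4. Kl (klotho), Folr1 (folate receptor α), Kcnj13 (a potassium channel) and Otx2 (a homeobox factor) had the same 4 libraries on top, with 140.0, 117, 93.6 and 29.03 CPM in A4 and 492, 361, 308 and 118 CPM in C4. Of the 23 genes of the list, 23 had their highest value in C4, 22 had C3 next, and 20 had A4, C3, C4 and D1 as the highest 4, as Ttr did. Over all genes tested, 18.9% had their highest value in C4, 4.04% had C4 and then C3, and 2.09% had the same highest 4 as Ttr. All 23 log2 fold changes were positive (49.6% of all genes were), from 0.68 for Trpv4 to 3.16 for Tmem72, with a median of 2.30, but 3 had an unadjusted p under 0.05 (Enpp2, Trpv4 and Ecrg4) and none was without overlap. The list took 0.0401% to 1.53% of counts in CTL and 0.225% to 6.22% in BLZ945 libraries.

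Genes of motile cilia, which are carried by ependymal cells, did not keep this order. Of 13 tested, 0 were highest in C4 and 11 were highest in CTL mouse A3 (12.9% of all genes were). Ccdc153 was at 19.7, 234, 80.4 and 90.9 CPM in CTL and 56.5, 71.7, 57.9 and 16.7 CPM in BLZ945 libraries. Tppp3 was at 251 CPM in A3 against 49.8 to 122 CPM in the others. Their median log2 fold change was -0.59 (-0.18 when scaled to the identity genes), and none had an unadjusted p under 0.05.

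**Figure D2:**
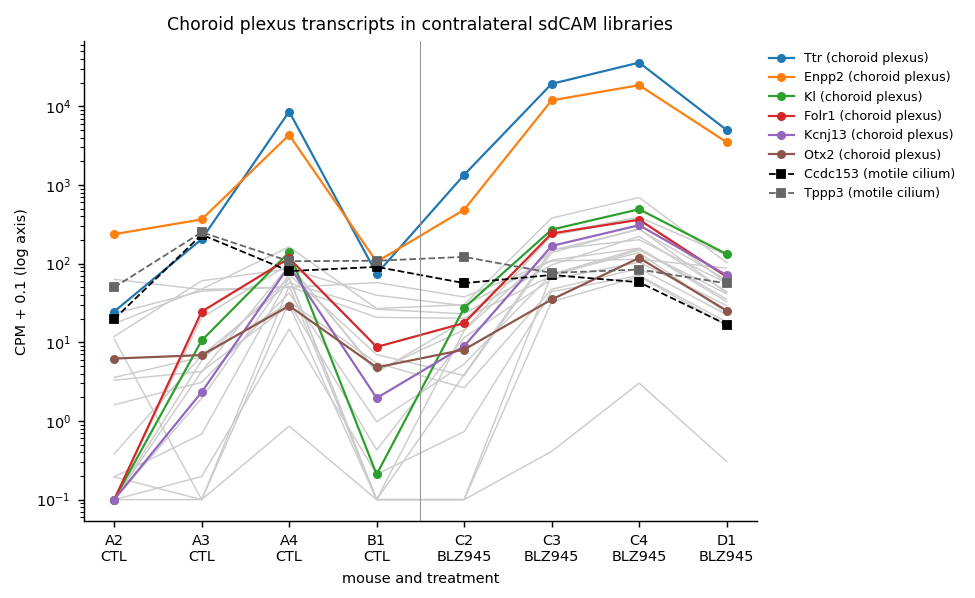
CPM plus 0.1 on a log axis for the 23 choroid plexus genes (grey, 6 of them in colour) and 2 motile cilium genes (dashed) in each contralateral sdCAM library; lines join the values of 1 gene and stand for no order of mice. The choroid plexus genes peak together in CTL mouse A4 and BLZ945 mice C3, C4 and D1, with Ttr at 8599, 19345, 36042 and 5004 CPM, and the cilium genes do not.

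To ask how far the differences follow these transcripts, the mean log2 CPM of the 23 genes was entered as a score into a fit of the 8 libraries. The score was 0.739, 2.68, 6.21 and 1.69 in the CTL mice and 3.25, 7.04, 7.96 and 5.79 in the BLZ945 mice. It passed at an edgeR adjusted p under 0.05 for 36 of 18461 genes, 35 with a positive slope (0.19% of genes) and 1 with a negative slope (Tnf, 0.00542%), and 11 of the 36 were members of the list, whose slopes are not independent of the score. The others included Slc4a2, a bicarbonate exchanger, Igfbp2, an IGF-binding protein, and Slc16a8, a lactate transporter, named after their values were seen. Without the score 1185 genes had an unadjusted p for treatment under 0.05 (6.42%), and 10 of these (0.844% of them, 27.8% of the 36) had a slope past the threshold. The slope was held to an adjusted p and treatment to an unadjusted one, so a small overlap was likely from the outset. The score also tended to be higher in BLZ945 mice, so a shift of a treatment difference cannot be assigned to either. With the score 1044 genes had an unadjusted p for treatment under 0.05 (5.66%), and 1026 of these had the same sign in both fits. The lists shared 447 genes, 37.7% of the 1185 and 43.6% of the 1026.

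The genes already described differed in how far they followed the score. Over all genes, 5.66% had an unadjusted p under 0.05 with the score, and 37.7% of those under it without the score kept it and their sign. All 6 bone marrow-type genes kept an unadjusted p under 0.05 with the score in the model, with log2 fold changes from 0.85 (H2-Aa) to 1.51 (Ccr2). These 6 had no overlap in the same libraries, so the count is a description. Of the yolk sac-type genes 1 of 5 did, Cd163 (-1.63, edgeR unadjusted p = 0.0364), whereas Lyve1 was at -0.89 and Colec12 at -0.84, and the list median moved from -1.19 to -0.84. The border macrophage gene Pf4 moved from -0.87 to -0.23 (edgeR unadjusted p = 0.558) and Mrc1 from -0.51 to -0.02. The slope of Pf4 with the score had an edgeR unadjusted p of 0.036 and an adjusted p of 0.658. The median of the 19 identity genes moved from -0.63 to -0.23. Ttr itself was at 1.02 and the choroid plexus list at a median of 0.12, which its use as the covariate sets. The 1 gene called for treatment in this fit was Tnf (0.00542% of genes), which encodes a proinflammatory cytokine and had 79.7, 21.5, 7.60 and 35.7 CPM in CTL and 219, 29.8, 20.2 and 81.7 CPM in BLZ945 libraries. Its log2 fold change was 1.28 ± 0.71 without the score and 3.20 with it. With mice C3 and C4 left out, the median of the choroid plexus list was 0.41 and Ttr was at 0.50, while Cd74 was at 1.07 and Cd163 at -1.73. Without CTL mouse A4, Ttr was at 7.29 and the list median at 4.59.

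**Figure D3:**
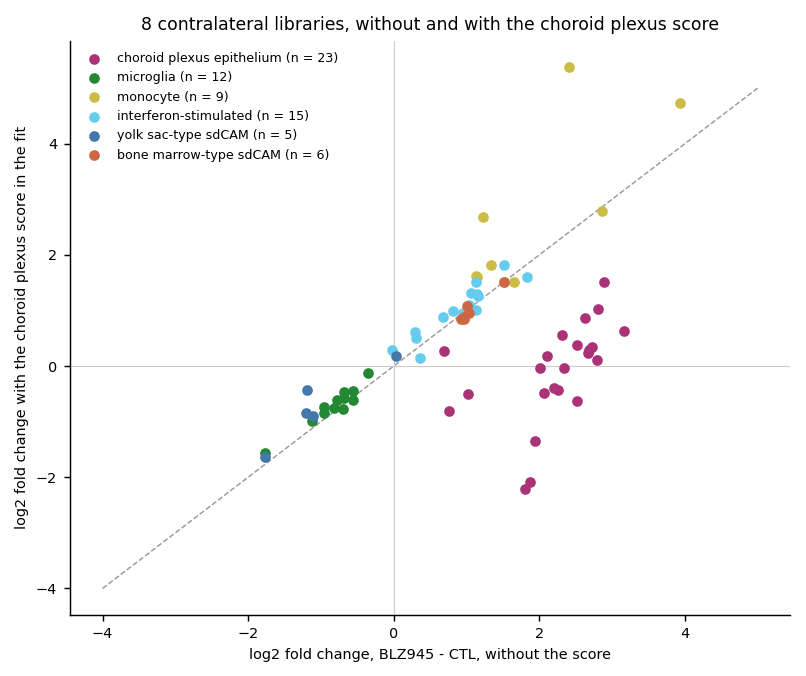
Log2 fold change (BLZ945 minus CTL) of single genes of 6 lists in a fit of the 8 contralateral libraries without (horizontal) and with (vertical) the choroid plexus score; the dashed line marks equal values. The 23 choroid plexus genes drop to a median of 0.12 on the vertical axis, while the 6 bone marrow-type genes stay near the line at a median of 0.92.

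Microglial transcripts had lower values in the repopulated mice. All 12 genes of the microglia list had negative log2 fold changes, 10 had an unadjusted p under 0.05 (2.85% of all genes were lower at this threshold), and 8 had no overlap, with BLZ945 lower (1.79% of all genes). P2ry12, the ADP receptor of microglial processes, had 4597, 3427, 3735 and 2939.9 CPM in CTL and 1932, 2243, 1118 and 1429.9 CPM in BLZ945 libraries (log2 fold change -1.13 ± 0.31, edgeR unadjusted p = 0.00227). Sall1, a transcription factor of microglial identity, had 167, 126, 135 and 149 CPM in CTL and 87.1, 90.8, 49.04 and 70.2 CPM in BLZ945 libraries (log2 fold change -0.96 ± 0.30, edgeR unadjusted p = 0.0064). Crybb1, a crystallin expressed by microglia, had 206, 163, 157 and 118 CPM in CTL and 59.5, 71.4, 24.5 and 33.8 CPM in BLZ945 libraries (log2 fold change -1.77 ± 0.45, edgeR unadjusted p = 0.00122). Mouse C4 held the lowest value of 11 of the 12 genes, and of 22.9% of all genes. The summed level of the list was 25086, 20450.2, 22472 and 18601 CPM in the CTL libraries and 14689, 17171, 8984 and 11956 CPM in the BLZ945 libraries, so that the treatments did not overlap. The list's median log2 fold change was -0.74, -0.67 with the choroid plexus score and -0.17 when scaled to the identity genes. The part of these transcripts in the differences of border macrophage genes was not tested.

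Transcripts of blood myeloid cells were high in 3 of the 4 repopulated mice. All 9 monocyte genes and all 10 neutrophil genes had positive log2 fold changes, of which 3 and 4 had an unadjusted p under 0.05 (3.34% of all genes were higher at this threshold), with Ltf at -1.13 and Ngp at 1.34 when mouse D1 was left out. The neutrophil median was 2.40, and 1.18 without D1. Chil3, a chitinase-like protein of monocytes and neutrophils, had 1.41, 8.42, 8.27 and 38.8 CPM in CTL and 461, 8.37, 132 and 255 CPM in BLZ945 libraries (log2 fold change 3.92 ± 1.29, edgeR unadjusted p = 0.00828). S100a8, a subunit of calprotectin, had 162, 79.7, 57.5 and 259 CPM in CTL and 958, 44.5, 1535 and 868 CPM in BLZ945 libraries (log2 fold change 2.61 ± 0.84, edgeR unadjusted p = 0.00695). Hp, haptoglobin, had 5.93, 17.5, 10.3 and 26.3 CPM in CTL and 89.7, 3.10, 199 and 141 CPM in BLZ945 libraries (log2 fold change 2.85 ± 0.88, edgeR unadjusted p = 0.00549). Mouse C3 had the lowest value of S100a8 and Hp of all 8 mice and lay inside the CTL range of Chil3. The summed monocyte list was 323, 268, 289.6 and 356 CPM in the CTL libraries and 1548, 233, 933 and 1527 CPM in the BLZ945 libraries, and the neutrophil list was 573, 306, 339.9 and 771 CPM in the CTL libraries and 2069, 255, 3101 and 2772 CPM in the BLZ945 libraries. The granule genes Ltf, Ngp and Camp were high in mouse D1, at 144, 322 and 68.6 CPM, against at most 0.290, 7.34 and 1.64 CPM in the others. Ly6g, the neutrophil antigen excluded by the sort, was between 0 and 3.93 CPM. Ccr2 belongs to both the monocyte and the bone marrow-type list. Mouse C3 had the highest Cd74 and the lowest monocyte sum, and the part of these lists in the bone marrow-type values was not tested.

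Interferon-stimulated genes had higher sums in all repopulated mice. The 15 genes summed to 976, 870.4, 859 and 966 CPM in the CTL libraries and 1612, 1046, 1303 and 2200.4 CPM in the BLZ945 libraries, and 14 had positive log2 fold changes, 7 an unadjusted p under 0.05 and 3 no overlap, with BLZ945 higher (median 1.03). Over all genes these shares were 49.6%, 3.34% and 1.45%. Oasl2, an antiviral oligoadenylate synthetase-like protein, had 53.99, 18.2, 43.3 and 51.2 CPM in CTL and 132, 59.4, 83.9 and 198 CPM in BLZ945 libraries (log2 fold change 1.51 ± 0.38, edgeR unadjusted p = 0.00109). Ifitm3, a membrane protein that blocks virus entry, had 279.8, 385, 279 and 348 CPM in CTL and 661, 422, 527 and 652 CPM in BLZ945 libraries (log2 fold change 0.81 ± 0.21, edgeR unadjusted p = 0.00175). The third was Rtp4, with 56.9 to 65.99 CPM in CTL and 73.1 to 129.7 CPM in BLZ945 libraries. Mouse D1 was highest for 11 of the 15 genes (11.5% of all genes) and C3 had the lowest sum of the repopulated mice. DESeq2 called Oasl2 (adjusted p = 0.0309) and no other gene of the list. It also called Oas1a (adjusted p = 0.0489), an interferon-stimulated gene outside the list that was named after its values were seen.

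Chemokines and cytokines overlapped widely between the treatments. Of 22 genes, 3 had an unadjusted p under 0.05, all higher in BLZ945 (3.34% of all genes were). Ccl6, a chemokine of myeloid cells, had 480.0, 332, 335 and 621 CPM in CTL and 1205, 523, 818 and 1435 CPM in BLZ945 libraries (log2 fold change 1.17 ± 0.32, edgeR unadjusted p = 0.00228). Il1b, interleukin 1β, had 48.9, 43.4, 44.4 and 382 CPM in CTL and 872, 18.1, 1346 and 961 CPM in BLZ945 libraries (log2 fold change 2.62 ± 1.11, edgeR unadjusted p = 0.0319). Cxcl2, which recruits neutrophils, had 41.2, 32.6, 8.61 and 269 CPM in CTL and 1625, 20.7, 458 and 819 CPM in BLZ945 libraries (log2 fold change 3.06 ± 1.16, edgeR unadjusted p = 0.0187). When 1 library was left out, Il1b ran from 2.25 to 4.13 (without B1) and kept an unadjusted p under 0.05 in 3 of 8 cases, and Cxcl2 ran from 2.30 (without C2) to 4.73 (without B1) and kept it in 7. For these 3 genes B1 was the highest CTL mouse, and C3 was the lowest repopulated mouse and lay below B1. Immediate early genes, which are induced by handling and by dissociation as well as by stimuli, summed highest in D1, B1 and C2 (20737, 19944 and 14165 CPM) and lowest in C3 (4402 CPM), and 0 of 15 had an unadjusted p under 0.05. Without B1, C2 and D1 the log2 fold change of Cd74 was 1.14 and that of Cd163 was -1.51.

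Lists of other brain cells had no gene past the threshold. At an unadjusted p under 0.05, 2 of 10 oligodendrocyte genes and 2 of 9 astrocyte genes were lower in BLZ945 (2.85% of all genes were). The neuron, endothelium and mural cell lists had 0 such genes in either direction. Of the oligodendrocyte genes, 1 was lower without overlap (1.79% of all genes were). All 10 oligodendrocyte genes had negative log2 fold changes, with a median of -1.18, and 8 of them were highest in CTL mouse A3 (12.9% of all genes were). Mbp, myelin basic protein, had 556, 429.8, 967 and 249 CPM in CTL and 496, 206, 169.7 and 151 CPM in BLZ945 libraries (log2 fold change -1.11 ± 0.48, edgeR unadjusted p = 0.035), and Cnp, a myelin enzyme, had 272 to 739 against 68.4 to 375 CPM (log2 fold change -1.13 ± 0.39). The synaptic transcript Snap25 was between 1.35 and 52.5 CPM against at least 2535 in tissue. Of the 14 lymphocyte genes, 2 were lower in BLZ945 at an unadjusted p under 0.05, namely Cd4 (log2 fold change -2.38 ± 1.07) and Cd79b (-1.12 ± 0.50), where 2.85% of all genes were. Without D1 they were at -3.92 and -1.78, and leaving out 1 library in turn kept an unadjusted p under 0.05 in 4 and 2 of 8 cases. Mbp ran from -0.66 without A4 to -1.65 without C2. Itgax, which encodes the CD11c excluded by the sort, had 13.3, 7.84, 11.6 and 11.9 CPM in CTL and 30.3, 22.4, 23.7 and 28.7 CPM in BLZ945 libraries (log2 fold change 1.23 ± 0.51, edgeR unadjusted p = 0.0288), without overlap. Col1a2, a collagen chain of fibroblasts, also had no overlap, with 8.13 to 20.3 against 21.9 to 64.5 CPM. Of all genes, 1.45% were higher in BLZ945 without overlap. The medians of the astrocyte, endothelium, mural cell, fibroblast, dendritic cell, erythroid and cell cycle lists were -0.82, 0.19, 0.37, 1.17, 0.31, -0.35 and 0.04, of which the erythroid one turned to 0.64 when scaled to the identity genes, as did that of the lymphocyte list (from -0.41 to 0.07). Leaving out 1 library turned the median of endothelium (-0.05 without B1), dendritic cells (-0.03 without D1), cell cycle (-0.18 without A2) and erythroid genes (0.27 without A2).

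**Figure D4:**
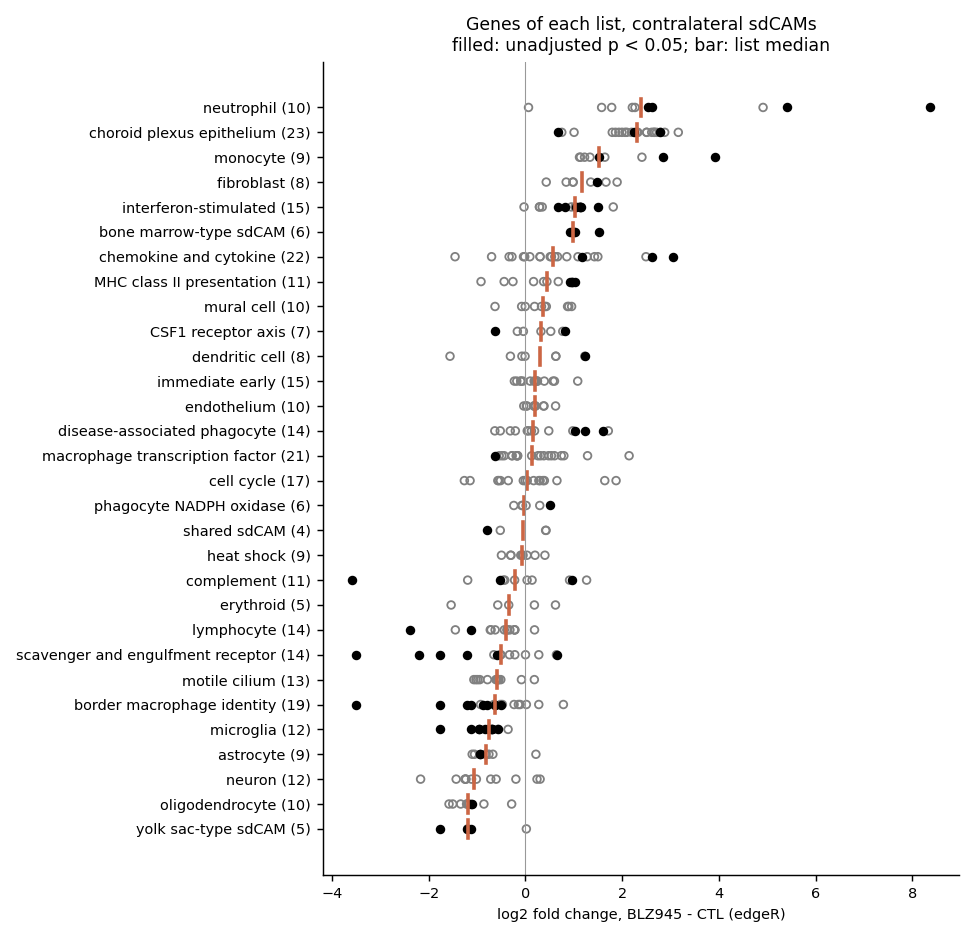
Log2 fold change (BLZ945 minus CTL, edgeR) of each tested gene of 30 lists in contralateral sdCAMs, filled where the unadjusted p was under 0.05, with the list median as a bar and the number of genes tested in parentheses. The neutrophil list had the highest median (2.40) and the yolk sac-type list the lowest (-1.19).

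Functional lists of macrophages had medians between -0.51 and 0.32. The CSF1 receptor axis had a median log2 fold change of 0.32, macrophage transcription factors 0.13, heat shock genes -0.07, scavenger and engulfment receptors -0.51, disease-associated phagocyte genes 0.16, the phagocyte NADPH oxidase -0.02 and complement -0.22, and the 4 negative ones turned to 0.48, 0.15, 0.67 and 0.49 when scaled to the identity genes. The positive ones turned as well, the CSF1 receptor axis to -0.04 without D1 and -0.25 without B1, C2 and D1, transcription factors to -0.07 with sex in the model, and disease-associated phagocyte genes to -0.26 without B1, C2 and D1. Csf2ra, the α-chain of the GM-CSF receptor, had 72.3, 47.8, 67.9 and 85.5 CPM in CTL and 158, 113, 56.2 and 157 CPM in BLZ945 libraries (log2 fold change 0.82 ± 0.28, edgeR unadjusted p = 0.00981). The complement gene C2, a protease precursor of the classical pathway, had 23.6, 6.10, 5.91 and 20.1 CPM in CTL and 1.14, 1.03, 1.82 and 0.616 CPM in BLZ945 libraries (log2 fold change -3.58 ± 0.77, edgeR unadjusted p = 0.000301), and DESeq2 called it (adjusted p = 0.00116). Of 11 complement genes, 1 was higher (Cfp, 0.96 ± 0.29) and 2 were lower (C2 and C1qc) at an unadjusted p under 0.05. Of 14 scavenger and engulfment receptors, 1 was higher (Axl, 0.65 ± 0.27) and 5 were lower at this threshold, and 3 were lower without overlap. The list includes Cd163, Colec12 and Cd209f, described above. Over all genes these shares were 3.34% higher, 2.85% lower and 1.79% lower without overlap.

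**Figure D5:**
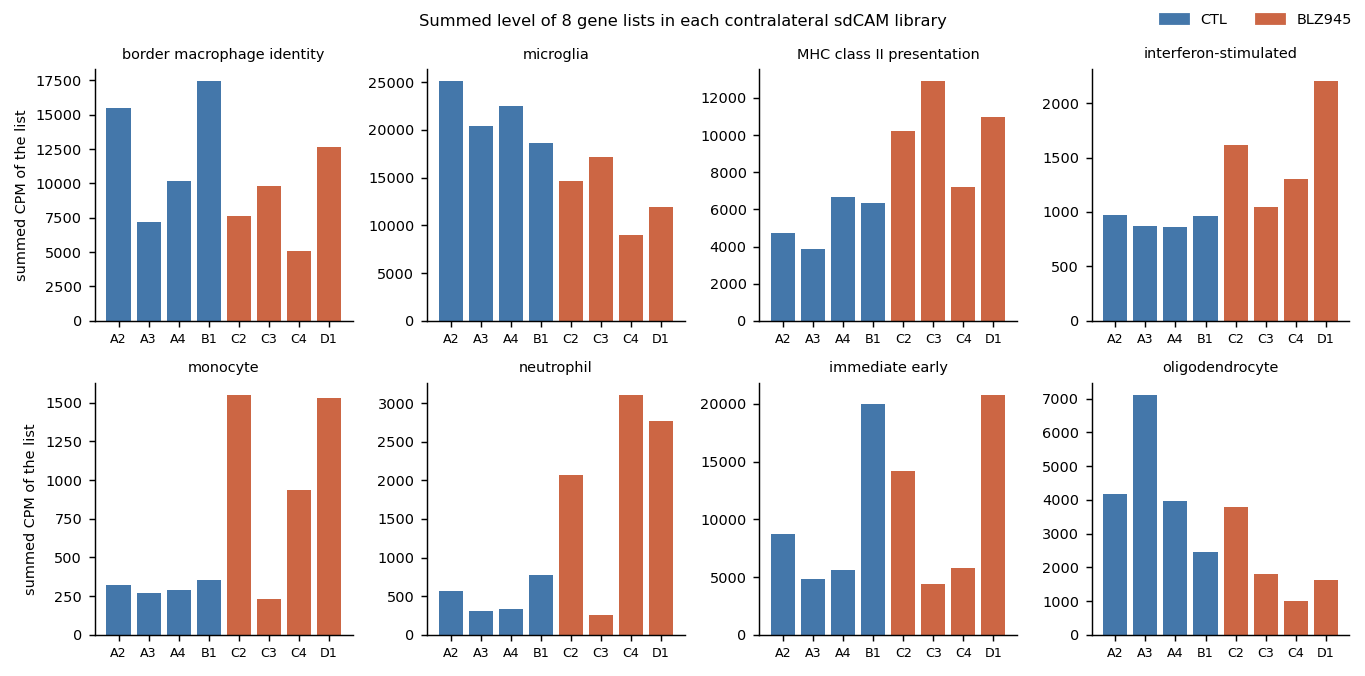
Summed CPM of 8 gene lists in each contralateral sdCAM library, 1 bar per mouse, CTL in blue and BLZ945 in orange, each axis starting at 0. All BLZ945 bars of the microglia list (at most 17171 CPM) lie below the CTL bars (at least 18601 CPM), whereas for monocyte and neutrophil genes mouse C3, at 233 and 255 CPM, lies below every CTL mouse.

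The gene with the smallest p was Plbd1, which encodes a phospholipase B-like protein of myeloid granules. It had 67.6, 47.7, 68.2 and 67.2 CPM in CTL and 176, 102, 149 and 241 CPM in BLZ945 libraries (log2 fold change 1.42 ± 0.25, edgeR adjusted p = 0.651), and DESeq2 called it (adjusted p = 6.35e-05). Cd52, a small glycoprotein of leukocytes, had 182, 144, 138 and 199.9 CPM in CTL and 418, 224, 465 and 336 CPM in BLZ945 libraries (log2 fold change 1.12 ± 0.23, edgeR unadjusted p = 0.000199). Emb, embigin, a chaperone of monocarboxylate transporters, had 57.8, 42.4, 70.5 and 77.3 CPM in CTL and 149.9, 262, 411 and 199.6 CPM in BLZ945 libraries (log2 fold change 2.04 ± 0.45, edgeR unadjusted p = 0.00041). Emb had the same order of the repopulated mice as Ttr (C4, C3, D1, C2). Among the CTL mice the order differed, with Emb highest in B1 and Ttr in A4. Of the repopulated mice, Plbd1 was lowest in C3. Cyp4f18, which degrades leukotriene B4, had 6.87 to 19.2 CPM in CTL and 23.5 to 103 CPM in BLZ945 libraries (log2 fold change 2.42 ± 0.56), and Napsa, an aspartic protease, had 14.03 to 33.6 against 35.1 to 73.9 CPM (1.30 ± 0.30). The other 5 of the 10 were H2-Ab1, Fxyd5, H2-Aa, H2-Eb1 and Ccr2.

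Among genes lower in BLZ945, Cd209f had the smallest p and was followed by Sox4, a SoxC transcription factor, with 74.96, 57.96, 52.4 and 75.4 CPM in CTL and 39.8, 18.7, 18.4 and 13.7 CPM in BLZ945 libraries (log2 fold change -1.53 ± 0.32, edgeR unadjusted p = 0.000235). Fscn1, fascin, which bundles actin, had 172 to 286 CPM in CTL and 37.9 to 137 CPM in BLZ945 libraries (log2 fold change -1.21 ± 0.32), and Cd164, a sialomucin, had 674 to 1129 against 373 to 654 CPM (-0.76 ± 0.21). Tnfrsf17, the receptor BCMA of plasma cells, had 9.39 to 17.1 against 1.13 to 4.18 CPM (-2.24 ± 0.61). The rest of the 10 were the complement gene C2, Crybb1, Sft2d1 (-0.72 ± 0.19), Neurl1a (-1.11 ± 0.29) and Engase (-1.15 ± 0.31). No gene of these 20 had a slope with the choroid plexus score past the threshold, and 0.19% of all genes had a positive one. With the score in the model 20 kept their sign and 18 an unadjusted p under 0.05. Of all genes under this p without the score, 37.7% kept it and their sign. All 20 were chosen from these libraries for a small p and required by the rule to have no overlap between the treatments. These counts were therefore largely set by the choice and cannot show whether the genes follow the choroid plexus transcripts.

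In the ipsilateral hemisphere, 3 CTL and 3 BLZ945 libraries of the same mice (A2, A4 and B1, and C3, C4 and D1) could be set beside these values. There, 1034 genes had an unadjusted p under 0.05 (5.65%) and edgeR called 0 (0%), and for the difference of the treatment effect between hemispheres the counts were 912 (4.98%) and 0 (0%). Ipsilateral Ttr was at 0.502, 342 and 5.58 CPM in CTL and 1463, 449.9 and 188 CPM in BLZ945 libraries. Cd74 was at 3463, 4794 and 4792 CPM in CTL and 9205, 8460.0 and 6358 CPM in BLZ945 libraries, with a log2 fold change of 0.88 ± 0.29 against 1.03 contralaterally, and the 6 bone marrow-type genes had a median of 0.73. Its ipsilateral treatments did not overlap either. Plbd1 was at 127, 176 and 168 CPM in CTL and 173, 139.8 and 116 CPM in BLZ945 libraries (-0.14 ± 0.28), and its difference between hemispheres had an edgeR unadjusted p of 0.000764 and an adjusted p of 0.731. Cd163 had an ipsilateral log2 fold change of -1.01 ± 0.54, Lyve1 -0.0035 ± 0.45 and Ccr2 0.18 ± 0.41. The 19 identity genes had an ipsilateral median of 0.07 and the 12 microglia genes -0.46. The monocyte, neutrophil and interferon-stimulated lists had ipsilateral medians of 0.185, 0.154 and 0.189, against 1.51, 2.40 and 1.03 contralaterally. Chil3 had an ipsilateral log2 fold change of -1.97 ± 1.39. Ltf and Ngp were at 220 and 446 CPM in the ipsilateral library of CTL mouse A4. In each of these 6 mice the contralateral library held more of the choroid plexus list than the ipsilateral one, and the ranges overlapped, at 0.0401% to 6.22% of counts in the 8 contralateral libraries against 0.00464% to 0.187%.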

How the data were processed

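RNA of sorted sdCAMs was sequenced and the deposited table holds whole-number counts of reads per gene, which the authors made with bcl2fastq 2.20, STAR 2.7.11a and featureCounts 2.0.8 per the labels, with no normalization. The genome build of these counts is not stated without ambiguity in the sources used here, and no coordinate was taken from it. Of the 16 sdCAM libraries, 2 ipsilateral ones that the labels describe as degraded were left out, and the other 14 were fitted together in 4 groups of treatment and hemisphere with edgeR 4.0.16 (quasi-likelihood, TMM, summed count of at least 7). Calls needed both an adjusted p (Benjamini-Hochberg) under 0.05 and an absolute log2 fold change over 0.59. The standard error is the log2 fold change divided by the root of the F statistic. DESeq2 1.42.0 (Wald) and limma 3.58.1 were alternatives, and the fit with the choroid plexus score used the 8 contralateral libraries with a summed count of at least 4. Hemispheres of 1 mouse come from the same animal, and their deviations from the group means correlated at r = 0.0703 to 0.278 over 6 pairs (consensus correlation 0.114), so the block by mouse was given beside the count of calls.

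Named genes were Mrc1, Cd163, Pf4, Ttr, every gene of the yolk sac-type, bone marrow-type, shared, MHC class II and choroid plexus lists, from other lists the 2 members with the highest mean and those with an unadjusted p under 0.05, and the 10 genes with the smallest p in each direction among those with a mean of at least 5 CPM and no overlap between the treatments, without Xist, Y-linked genes and unnamed gene models. Members and lists were chosen with earlier results of these data known. Genes named outside this rule are examples chosen after their values were seen. The standard errors include the spread between libraries, whereas the floor of 3 counts covers counting error only. Mitochondrial transcripts were not analysed here, and 1 item that the rule names is not reported here. Scripts were tested on simulated data.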

Additional observations from a re-analysis of the deposited data

Results flagged for a closer look

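Of 284 groups of 4 mice tested for a value far from the other 3 (Dixon's test on unlogged values), 27 were singled out. The nominal rate of 1 in 20 assumes normal and independent values. CPM are skewed and the genes share the same libraries, so this rate is no guide to chance here. CTL mouse A4 accounted for 14, all of them choroid plexus values. Its choroid plexus share of counts was 1.53% against at most 0.0951% in the other CTL mice, and its values were 8599 CPM for Ttr, 4337 for Enpp2, 140.01 for Kl, 94.5 for Sostdc1, 93.6 for Kcnj13, 72.5 for Kcne2, 66.4 for Car12, 65.998 for Cldn2, 42.5 for Steap1, 32.7 for Aqp1, 29.6 for Slc4a5, 29.03 for Otx2 and 14.6 for Tmem72. CTL mouse B1 was high for Il1b (382 CPM), Cxcl2 (269 CPM) and Clec7a (241 CPM), a receptor for fungal glucans. CTL mouse A2 was high for Nkg7 (108 CPM), a gene of cytotoxic lymphocytes, and A3 was high for Vtn (772 CPM), vitronectin, and low for Plbd1 (47.7 CPM). Among the repopulated mice, C2 was high for Mbp (496 CPM) and Nkg7 (68.0 CPM), C4 was low for H2-DMb1 (127 CPM) and H2-Oa (4.64 CPM) and high for Mfrp (2.93 CPM), and D1 was high for the granule genes Ngp (322 CPM) and Ltf (144 CPM). No cause was tested for any of them.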

How the results depend on the processing

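Totals overlapped between the treatments, and the median standard error was 0.372 (quartiles 0.261 and 0.612, genes of at least 5 CPM). Calls of 0 became 35 higher and 9 lower genes with DESeq2, 1 higher with the choroid plexus score, and 1 lower without B1, C2 and D1, a setting chosen after seeing the data like the one without C3 and C4 and those that leave out an ipsilateral library. The cause of these differences was not tested. Leaving out any 1 contralateral library left 0 calls in both directions. Unadjusted counts, 612 higher and 521 lower, became 2148 and 151 when scaled to identity genes (93.4% higher in place of 54%), 663 and 381 with the score (63.5%), 406 and 336 with filterByExpr, 392 and 236 with all 16 libraries (62.4%), 361 and 370 with sex as a covariate, 495 and 294 without C4 (62.7%), and 569 and 250 without C3 and C4 (69.5%). Of 73 named genes with an unadjusted p under 0.05, 54 kept it and their sign with sex in the model and 46 with the score.

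With the mouse as a replicate block, 7 genes were called higher and 4 lower. The numbers in the mouse names (A2 and C2, for example) are shared labels only, with r = 0.0373 to 0.300 over 4 pairs, and a replicate block by number called 10 higher and 3 lower.

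Ipsilaterally, 0 calls became 38 higher and 90 lower with DESeq2, 1 lower without a filter and 1 lower with sex as a covariate, and ranged from 0 to 6 higher and 0 to 7 lower when 1 library was left out (without B1, 6 and 4, without C4, 1 higher, without A2, 7 lower). For the difference between hemispheres, DESeq2 called 36 higher and 12 lower, and leaving out 1 library gave 0 to 2 and 0 to 5, the highest without ipsilateral B1.

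Directions turned for Aif1 (0.12), C1qc (0.084), Csf1r (0.00420) and Maf (0.00798) when scaled to identity genes, for Ecrg4 (-0.43) with the choroid plexus score, and for Ltf (8.37, from -1.13 without D1 to 9.64 without A3, and -1.06 without B1, C2 and D1). The choroid plexus median of 2.30 ranged from 1.54 (without C4) to 4.59 (without A4), and the difference in genes detected of 173.25 from -84.75 (without A2) to 307.25 (without A4).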

Other observations

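A group of transcripts that was near 0 in 1 treatment and low in the other was called by the fit with the mouse as a block (limma voom) but not by edgeR, and DESeq2 called 3 of the 4 named here as well (Kcne3, Esm1 and Gfpt2). Esm1, an endothelial proteoglycan, had 0, 0.0968, 0 and 0 CPM in CTL mice A2, A3, A4 and B1 and 2.79, 12.6, 12.01 and 1.95 CPM in BLZ945 mice C2, C3, C4 and D1. Kcne3, a potassium channel subunit, had 0, 0, 0 and 0 CPM in CTL and 4.56, 6.10, 13.5 and 1.74 CPM in BLZ945 libraries. Gfpt2, an enzyme of hexosamine synthesis, had 0, 0.0968, 0 and 0 CPM in CTL and 2.79, 4.75, 6.56 and 3.59 CPM in BLZ945 libraries. Plppr5 was the reverse, with 1.41, 4.35, 3.88 and 6.34 CPM in CTL and 0 CPM in all BLZ945 libraries. These 4 were named after their values were seen, and 3 counts correspond to 0.271 to 0.406 CPM in these libraries.

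Library C2 carried Xist (93.6 CPM) together with low Y-linked transcripts (Ddx3y at 10.8 CPM, Kdm5d at 7.85 CPM), whereas the male CTL mice had Ddx3y at 87.1 to 146 CPM and no Xist. Why C2 held both was not tested.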
